A study of Mus musculus with 6 samples.

Results

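A set of 10 genes that steer alternative splicing in striated muscle was examined in the atrial cardiomyocyte nuclei of Prrx1(R1A)-/- and control mice. They are Rbm20, Rbm24, Rbfox1, Rbfox2, Mbnl1, Mbnl2, Celf1, Celf2, Srpk3 and Ptbp1, taken by symbol, and all 10 were found among the 26332 genes with values. The set was chosen by the normalized counts of Prrx1(R1A)-/- against control nuclei in these same libraries, led by Rbm20, so the genotype differences of the 10 are given as a description and without a test. Nuclear RNA was sequenced from mice aged 8 to 12 weeks. Left and right atrial nuclei were combined per animal, and those positive for PCM1, which gathers around the nuclei of cardiomyocytes, were taken by sorting. Per the labels each library holds the atria of 1 individual. The 6 libraries came from 3 Prrx1(R1A)-/- mice, which carry the R1A allele on both chromosomes, and from 3 mice labelled as control. The deposited values of these controls are headed wt. The series title ties the allele to a noncoding region that regulates Prrx1, a homeobox gene of mesenchymal cells, and the comparison asks how atrial cardiomyocyte nuclei of these mice differ.

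Alternative splicing gives a muscle gene different exon sets at different ages and in different muscles. Rbm20 binds UCUU-rich introns of titin and other heart transcripts and keeps exons out, and in humans its mutations cause dilated cardiomyopathy with arrhythmia. Rbm24 and the Rbfox proteins mostly favour muscle exons, MBNL and CELF proteins act against each other on many developmental exons, Srpk3 is a muscle kinase of SR proteins, and Ptbp1 is a widely expressed repressor. The values below count RNA per gene and do not show which exons were used.

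Promoter sequences show where transcription of a member begins, and 8 of the 10 genes have an entry in the RefSeq table used (build GRCm38.p6). The pair printed here are muscle-restricted genes with unlike values, Rbm24, which was higher on average in Prrx1(R1A)-/- nuclei, and Srpk3, which differed little. Each runs 5′ to 3′ over 300 bases and ends 50 bases past the annotated start, with matches to 8 short motifs in capitals. Rbm24 is read on the plus strand at chr13:46418050-46418349 and Srpk3 on the plus strand at chrX:73774155-73774454. The starts meant here are those of the RefSeq entries. In the GENCODE M21 annotation Rbm24 starts at 46418434, past the end of its window, and Srpk3 at 73774405, within its window.
Rbm24: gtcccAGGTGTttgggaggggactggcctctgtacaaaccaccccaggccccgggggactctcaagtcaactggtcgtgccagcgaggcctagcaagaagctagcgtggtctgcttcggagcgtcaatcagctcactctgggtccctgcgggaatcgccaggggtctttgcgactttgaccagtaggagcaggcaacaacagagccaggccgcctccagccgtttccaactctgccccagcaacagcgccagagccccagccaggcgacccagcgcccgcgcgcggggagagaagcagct
Srpk3: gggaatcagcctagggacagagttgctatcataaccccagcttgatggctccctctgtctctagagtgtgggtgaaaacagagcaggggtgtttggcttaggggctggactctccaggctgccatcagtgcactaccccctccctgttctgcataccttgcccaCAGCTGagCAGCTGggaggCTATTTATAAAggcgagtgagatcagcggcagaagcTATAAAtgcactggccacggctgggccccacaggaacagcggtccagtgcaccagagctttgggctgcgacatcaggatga

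The motifs, searched on both strands, were the full MEF2 consensus, the E-box CAGCTG, the M-CAT element GGAATG, the GATA element AGATAA, the T-box element AGGTGT, the paired-related homeodomain element TAATTA, the TATA box TATAAA and the GC box GGGCGG. In the Srpk3 window CAGCTG matched at -86 to -81 and again at -78 to -73, counting from the start site, and TATAAA matched at -64 to -59, -62 to -57 and -31 to -26. The first pair of TATAAA matches overlap on opposite strands, and both lie largely within a MEF2 consensus match at -67 to -58. In the Rbm24 window the single match was AGGTGT at -245 to -240. Of 32851 promoters of the same length, 16.3% held the E-box, 13.6% the TATA box, 13.7% the T-box element and 3.19% the MEF2 consensus; a match describes the letters of the window only. G and C made up 64.7% of the Rbm24 window and 56.7% of the Srpk3 window.

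Each library held between 10580961 and 14658584 reads, of which ribosomal RNA took 26.7% to 39.8% in Prrx1(R1A)-/- libraries and 12.0% to 46.5% in controls. Across genes, control replicate 1 correlated less with the other 5 libraries (r = 0.890 to 0.908) than those did among themselves (r = 0.912 to 0.958). Prrx1 had 201, 194 and 183 normalized counts in Prrx1(R1A)-/- nuclei, against 415, 335 and 282 in controls (log2 fold change -0.82 ± 0.25, adjusted p = 0.270 by limma). Its value in control replicate 3 was the single deposited value that did not come out as a whole number of reads. The cardiomyocyte identity of the nuclei was checked with 12 marker genes, among them Myh6, Ttn and Tnnt2. Their summed normalized count was 805917 to 1506410 in Prrx1(R1A)-/- libraries and 301916 to 581077 in controls, and Ttn made up 71.9% to 82.0% of it. Of the 12, 10 had a log2 fold change above 0 and 2 below. Those below were Pln (-0.14) and Pcm1 (-0.28), the gene of the protein used for sorting. The 8 fibroblast markers summed to 31190 to 35311 in Prrx1(R1A)-/- libraries and 43508 to 73743 in controls, and all 8 had a log2 fold change below 0. The 9 immune markers summed to 4473 to 5061 in Prrx1(R1A)-/- libraries and 5274 to 8862 in controls, with all 9 below 0, while the sums of endothelial, smooth muscle and pericyte, Schwann and neuron, epicardial and adipocyte markers overlapped between genotypes. No marker was at 0 in every library.

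Rbm20 stood out among the 10 genes: its normalized read count was 3.35-fold higher in Prrx1(R1A)-/- nuclei, and the groups were far apart. A normalized read count is the number of reads of a gene divided by a size factor for its library. Rbm20 (identifier 73713; GRCm38 chromosome 19, 53677306 to 53867080, plus strand) had 9681, 11229 and 6025 in Prrx1(R1A)-/- replicates 1, 2 and 3, against 2299, 2559 and 2958 in control replicates 1, 2 and 3. Every Prrx1(R1A)-/- library lay above every control, and the lowest of them, replicate 3, was still above the highest control. The means were 8978 ± 2673 and 2605 ± 332 (SD, n = 3 each), a log2 fold change of 1.74 ± 0.25 (SE, from limma on log2 of the count plus 1). That placed it 104th from the top of 14584 genes ranked by log2 fold change. Leaving out any 1 library gave 1.56 to 2.01. In the authors' deposited table the log2 fold change of Rbm20 is 1.59 with a standard error of 0.25. In sorted bulk nuclei, more nuclei of a kind and more RNA per nucleus cannot be told apart.

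Rbm24, an RNA-binding protein of heart and skeletal muscle that favours muscle exons and is needed for sarcomere assembly in mice, was higher on average but with overlapping groups. It had 1523, 1572 and 716 normalized counts in Prrx1(R1A)-/- nuclei, against 375, 877 and 927 in controls. Replicates 1 and 2 of the Prrx1(R1A)-/- group stood above all controls, whereas replicate 3 lay between control replicates 1 and 2. The log2 fold change was 0.83 ± 0.38, and it was 0.41 without control replicate 1, the library with the lowest value.

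The Rbfox proteins bind the element UGCAUG beside exons of muscle and nerve, and both genes were higher on average. Rbfox1, the form of nerve, heart and skeletal muscle, had 378, 293 and 143 normalized counts in Prrx1(R1A)-/- nuclei, against 70.5, 192 and 140.2 in controls. Its groups overlapped through Prrx1(R1A)-/- replicate 3, and the log2 fold change was 1.01 ± 0.43 (0.61 without control replicate 1). Rbfox2, the more widely expressed form, had 2342, 2437 and 2710 in Prrx1(R1A)-/- nuclei, against 2111, 1294 and 1433 in controls. Its groups did not overlap, although control replicate 1 came close, and the log2 fold change was 0.66 ± 0.23. Rbfox1 spans 1526 kb and was read at only 56 to 348 reads per library, so it was the member with the fewest reads in a single library.

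The muscleblind proteins Mbnl1 and Mbnl2, which set the adult pattern of many muscle exons and are trapped by expanded CUG repeats in human myotonic dystrophy, did not separate by genotype. Mbnl1 had 1899, 1715 and 1630.25 normalized counts in Prrx1(R1A)-/- nuclei, against 1538, 2734 and 2354 in controls. The 3 Prrx1(R1A)-/- values sat inside the wide range of the controls (log2 fold change -0.30 ± 0.24, and -0.54 to -0.13 on leaving out 1 library, the ends being without control replicates 1 and 2). Mbnl2 had 1791, 1425 and 1628 in Prrx1(R1A)-/- nuclei, against 1029, 1971 and 1783 in controls, again inside the control range. Its log2 fold change was 0.07 ± 0.26, and its sign turned with quantile scaling (-0.11), without Prrx1(R1A)-/- replicate 1 (-0.01) and without control replicate 1 (-0.22).

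The CELF proteins, which bind GU-rich RNA and oppose MBNL proteins on a set of developmental exons, were slightly lower on average. Celf1 had 859.8, 891 and 783 normalized counts in Prrx1(R1A)-/- nuclei, against 849, 1130.2 and 1129 in controls. Control replicate 1 lay among the Prrx1(R1A)-/- values and the other two controls above them (log2 fold change -0.28 ± 0.21). Celf2 had 1661, 1523 and 1646 in Prrx1(R1A)-/- nuclei, against 1679.8, 1954 and 1837 in controls. It was the single member whose Prrx1(R1A)-/- values all lay below the controls, but by a margin of 1661 to 1679.8 and with a log2 fold change of -0.18 ± 0.19, smaller than its error.

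The kinase and the repressor differed little. Srpk3, which phosphorylates SR proteins and is activated by MEF2 in mouse muscle, had 169, 158 and 149.6 normalized counts in Prrx1(R1A)-/- nuclei, against 131, 133 and 156 in controls. The groups overlapped through control replicate 3 (log2 fold change 0.18 ± 0.27). Ptbp1, which binds pyrimidine tracts and holds back many muscle and nerve exons, had 1126, 1319.8 and 1509 in Prrx1(R1A)-/- nuclei, against 1360.2, 960.2 and 994 in controls. Control replicate 1 reached into the Prrx1(R1A)-/- range (log2 fold change 0.26 ± 0.22, 0.42 without that library and 0.16 without Prrx1(R1A)-/- replicate 3). Exons of Mbnl2, Celf2 and Ptbp1 share bases with genes on the opposite strand in the GENCODE M21 annotation, and the use of strand in counting is not given in the sources used here, so reads of these genes and of their partners cannot be told apart.

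**Figure D1:**
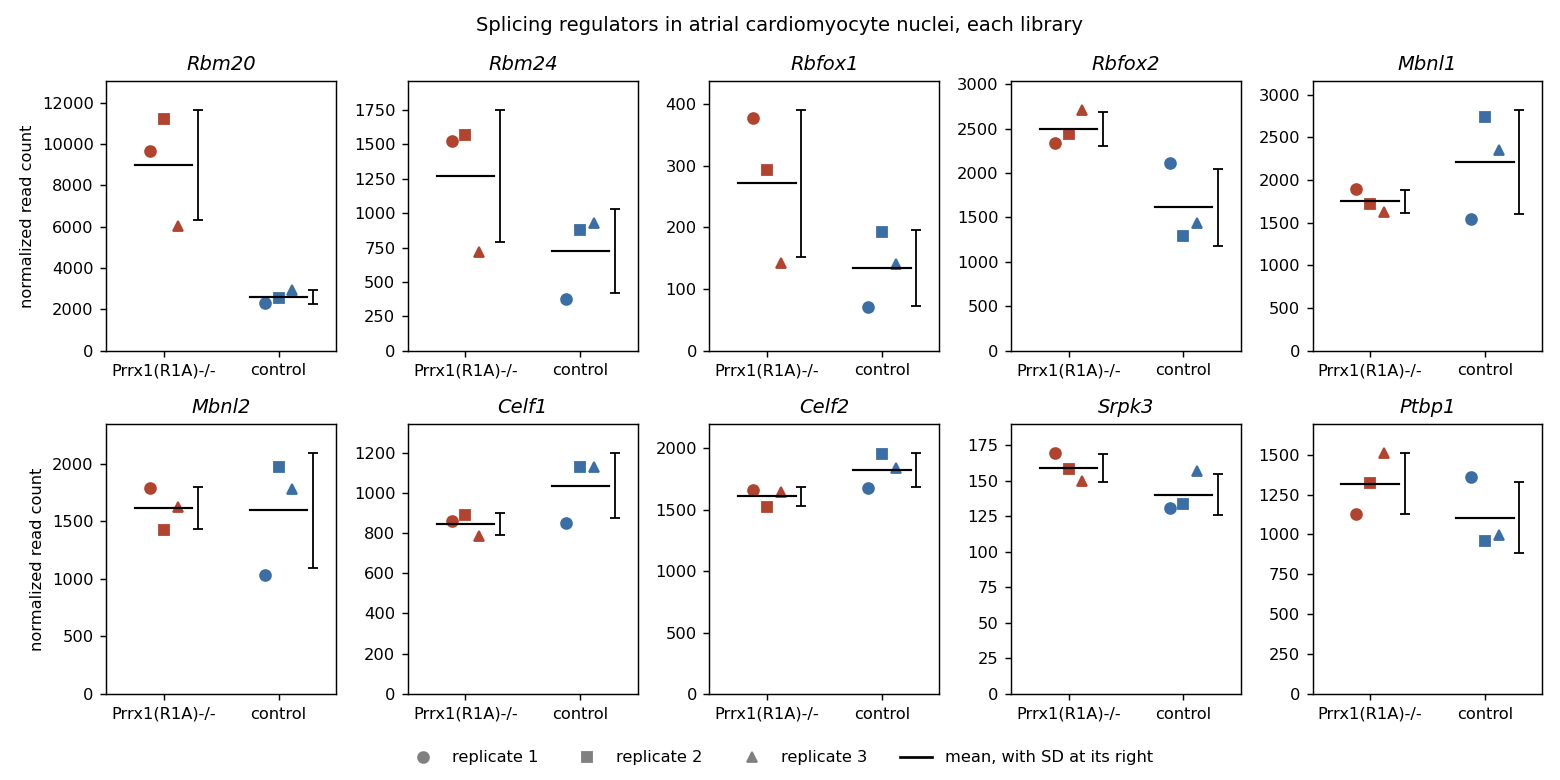
Normalized read count (vertical axes, from 0) of each of the 10 splicing regulators in 3 Prrx1(R1A)-/- and 3 control libraries; marker shapes are replicates, horizontal lines are means and bars at their right are SD. Rbm20 ranges from 6025 to 11229 in Prrx1(R1A)-/- nuclei and from 2299 to 2958 in controls, while the Mbnl1, Mbnl2 and Srpk3 groups overlap.

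Counted together, 7 of the 10 genes had a log2 fold change above 0 and 3 below, with a median of 0.22, beside a median of -0.00 over all 14584 genes tested. The genotype groups did not overlap for 3 of the 10, where the share over all genes tested was 17.2%. Rbm20 and Rbfox2 were on the higher side (8.89% of all genes) and Celf2 on the lower side (8.36%). With adjusted p under 0.05 by limma over all genes, 0 of the 10 were called, beside 0.0137% of all genes (2 of 14584). DESeq2 called 1 of the 10, beside 1.78% of all genes, and edgeR 0. Without control replicate 1 the limma call took in 2 of the 10, beside 9.16% of all genes. Because these members were chosen with this contrast in view, nothing is read from these counts. The authors' deposited table, made from the same libraries, lists 1900 genes, beside 26332 genes with values. It holds 4 of the 10: Rbfox1 at 0.78, Rbm24 at 0.66 and Rbfox2 at 0.57 on the log2 scale, beside Rbm20. Nothing is read from this count either.

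The members differed in level as well as in difference, and levels can be set side by side only per exonic length. Rbm20 had the highest level in both genotypes, 1322 ± 394 normalized counts per kb in Prrx1(R1A)-/- nuclei and 384 ± 48.9 per kb in controls (SD, n = 3 each), and its range did not meet that of the next gene in either. In Prrx1(R1A)-/- nuclei Rbm24 (364 ± 138 per kb), Rbfox2 (307 ± 23.5) and Ptbp1 (278 ± 40.4) followed with overlapping neighbouring ranges. In controls the same 3 genes followed in the order Ptbp1 (233 ± 46.8 per kb), Rbm24 (208 ± 87.5) and Rbfox2 (198 ± 53.7), also with overlapping neighbouring ranges. Mbnl2, Celf1 and Mbnl1 came next in both genotypes, at 135, 100.03 and 93.4 per kb in Prrx1(R1A)-/- nuclei and 133, 123 and 118 per kb in controls. Celf2, Rbfox1 and Srpk3 had the lowest levels, 62.2, 61.6 and 57.2 per kb in Prrx1(R1A)-/- nuclei with overlapping neighbouring ranges. In controls the order at the bottom was Celf2 (70.5 per kb), Srpk3 (50.4) and Rbfox1 (30.5), with no overlap between neighbours. The exonic length is the merged length of all annotated exons, from 2.784 kb for Srpk3 to 25.884 kb for Celf2. Nuclear RNA holds unspliced transcripts, and whether intronic reads were counted is not given in the sources used here.

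**Figure D2:**
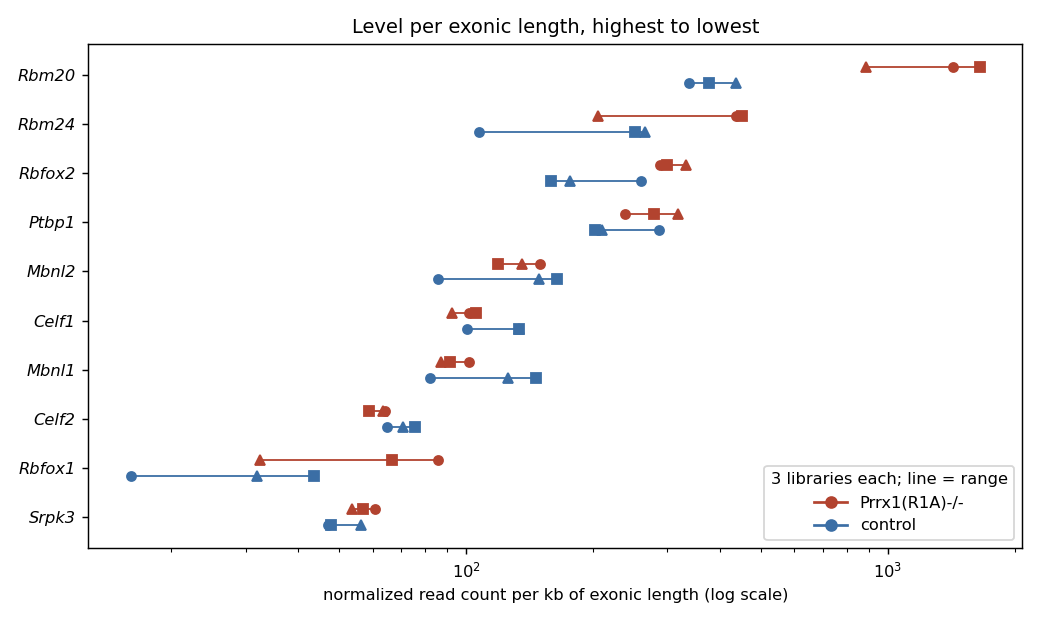
Normalized read count per kb of exonic length (horizontal log axis) for the 10 regulators, ordered from the highest mean in Prrx1(R1A)-/- nuclei; points are libraries and lines span each group of 3. Rbm20 lies highest in both groups, with 887 per kb as its lowest Prrx1(R1A)-/- value and 436 per kb as its highest control value.

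Ratios within a library do not depend on its size factor, although a scaling that differs between genes, such as quantile scaling, would move them. Mbnl1 per kb over Mbnl2 per kb was 0.679, 0.771 and 0.642 in Prrx1(R1A)-/- libraries, against 0.957, 0.889 and 0.846 in controls. The ratio was tight in both groups and lower in every Prrx1(R1A)-/- library, although neither gene separated by genotype alone. Rbm20 over Rbm24 was 3.27, 3.67 and 4.33 in Prrx1(R1A)-/- libraries, against 3.15, 1.50 and 1.64 in controls. Control replicate 1 sat just under the lowest Prrx1(R1A)-/- value, and the other controls were much lower. Celf1 over Celf2 was 1.61 ± 0.17 in Prrx1(R1A)-/- libraries and 1.74 ± 0.17 in controls, and Rbfox1 over Rbfox2 was 0.206 ± 0.102 in Prrx1(R1A)-/- libraries and 0.172 ± 0.106 in controls (SD, n = 3 each), with overlapping groups in both cases. Against the widely expressed repressor, Rbfox2 over Ptbp1 was 1.21, 1.08 and 1.05 in Prrx1(R1A)-/- libraries and 0.904, 0.785 and 0.839 in controls, without overlap. Rbm24 over Ptbp1 and Mbnl1 over Ptbp1 overlapped between the groups. These ratios follow from the same counts as the genotype differences and are likewise a description. The share of other gene pairs whose ratio separates by genotype was not computed, so nothing is read from these separations.

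**Figure D3:**
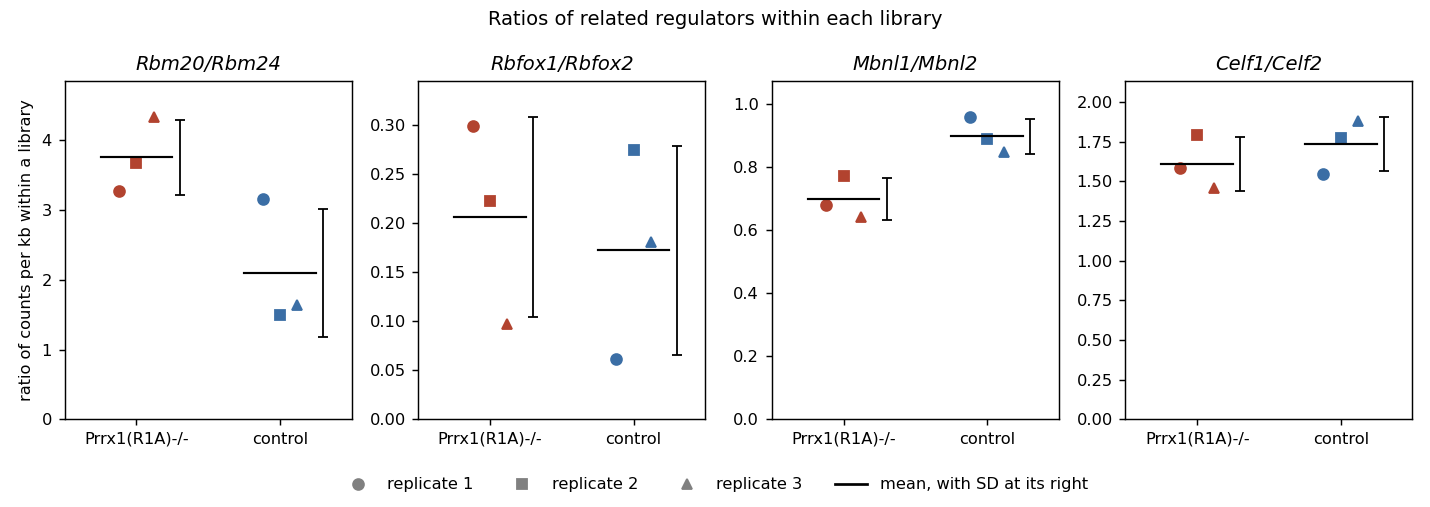
Ratio of normalized counts per kb (vertical axes, from 0) for 4 pairs of related regulators within each library; marker shapes are replicates, lines are means and bars at their right are SD over 3 libraries. Mbnl1 over Mbnl2 lies between 0.642 and 0.771 in Prrx1(R1A)-/- libraries and between 0.846 and 0.957 in controls.

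Within each genotype most members shared their lowest library, while the highest one varied. Rbm20, Rbm24, Rbfox1, Mbnl1, Celf1 and Srpk3, 6 of the 10, were lowest in Prrx1(R1A)-/- replicate 3 among the Prrx1(R1A)-/- libraries and lowest in control replicate 1 among the controls. Rbfox2 and Ptbp1 were highest in those same libraries, and Mbnl2 and Celf2 followed neither pattern. The summed cardiomyocyte markers were also lowest in Prrx1(R1A)-/- replicate 3 (805917) and control replicate 1 (301916). The share of ribosomal RNA was highest in the same 2 libraries, 39.8% in Prrx1(R1A)-/- replicate 3 and 46.5% in control replicate 1. The part of either in the members' values was not tested.

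Set against the summed cardiomyocyte markers of the same library, the picture of the members shifted. Rbm20 had 7.36, 7.45 and 7.48 counts per 1000 marker counts in Prrx1(R1A)-/- libraries, against 7.61, 5.80 and 5.09 in controls. Its groups then overlapped, and the mean difference on the log2 scale was 0.29 in place of 1.74. The marker sum is mostly titin RNA, since Ttn made up 71.9% to 82.0% of it. With Ttn left out, Rbm20 had 32.5, 41.4 and 26.8 counts per 1000 marker counts in Prrx1(R1A)-/- libraries, against 27.1, 26.6 and 21.6 in controls, which again overlapped (0.41 on the log2 scale). Against the geometric mean of the 12 markers, in which each gene weighs the same, Rbm20 stayed higher without overlap, at 1.01, 1.28 and 0.748 in Prrx1(R1A)-/- libraries against 0.708, 0.517 and 0.390 in controls, a difference of 0.92 on the log2 scale. These denominators were chosen after the data were seen.

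On the same scales Mbnl1, Mbnl2, Celf1, Celf2 and Srpk3 were lower in every Prrx1(R1A)-/- library than in any control, with each of the 3 denominators. Each denominator was itself higher in every Prrx1(R1A)-/- library than in any control, so a gene with an unchanged count comes out lower on these scales. The share of all genes that did so was not computed, and nothing is read from this count. Mbnl1, for example, had 1.44, 1.14 and 2.02 counts per 1000 of the full marker sum in Prrx1(R1A)-/- libraries, against 5.09, 6.19 and 4.05 in controls. For Rbm24 the log2 difference was -0.63 against the full sum, -0.51 without Ttn and 0.01 against the geometric mean. For Rbfox1 it was -0.44, -0.32 and 0.20. For Rbfox2 it was -0.79, -0.68 and -0.16, and for Ptbp1 -1.19, -1.08 and -0.56. Of all 10, only Rbm20 had a positive log2 difference with every one of the 3 denominators, with overlapping groups against the full sum and without Ttn. Rbm20 led the choice of the set and the denominators share their markers, so this is a description and not a set of separate checks.

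**Figure D4:**
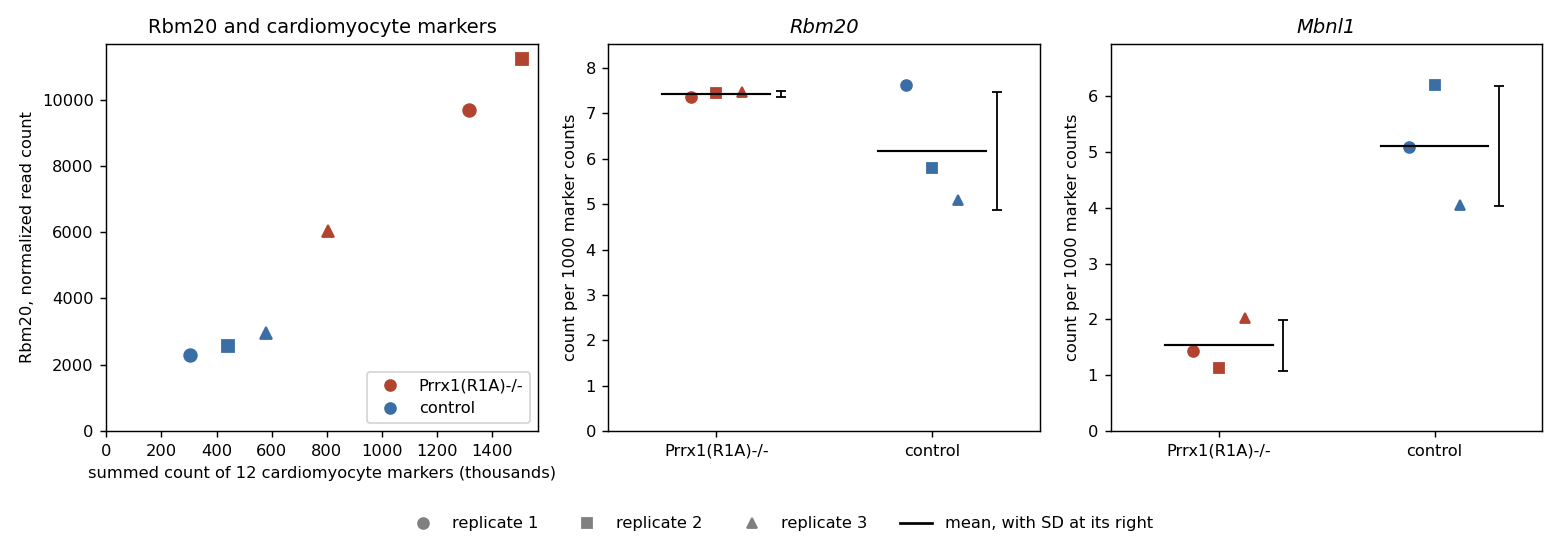
Left, Rbm20 normalized count against the summed count of 12 cardiomyocyte markers (axis in units of 1000), 1 point per library; middle and right, Rbm20 and Mbnl1 as counts per 1000 marker counts, with means as lines and SD over 3 libraries as bars. Rbm20 per 1000 marker counts is 7.36 to 7.48 in Prrx1(R1A)-/- libraries and 5.09 to 7.61 in controls, and Mbnl1 is 1.14 to 2.02 against 4.05 to 6.19.

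The genes whose library pattern was closest to that of Rbm20 were found by Pearson's r of log2 counts over the 6 libraries. The search took in 8143 genes with a mean normalized count of at least 100, and genes with a provisional name were left out. The closest were Alpk3, an alpha kinase gene of inherited cardiomyopathy (r = 0.998), Adcy5, a main adenylyl cyclase of the heart (0.996), Tom1l2 (0.994), Ppargc1b, a coactivator of mitochondrial genes (0.994), and the heat shock cochaperone gene Dnajb5 (0.993). Alpk3 had means of 3495 and 1006 normalized counts in Prrx1(R1A)-/- and control nuclei. Among the members, Srpk3 (0.801), Rbfox1 (0.792), Rbm24 (0.776) and Rbfox2 (0.702) had the highest r, ranking between 606th and 1008th of the 8143. Celf2 (-0.756), Celf1 (-0.514) and Mbnl1 (-0.378) had negative r. All points share the same libraries and their scaling, so r is a description over 6 points that includes the genotype difference itself.

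Transcripts known to be spliced by the members were then set beside them, with a test by limma over all genes. Of 19 Rbm20 targets, which encode parts of the sarcomere and of calcium handling, 18 had a positive log2 fold change and their list had a median of 1.05, beside -0.00 over all genes. Of the 18, only Pdlim5 (0.30) turned below 0 on leaving out 1 library (-0.20, without control replicate 1). Without that library Mlip went from 0.79 to 0.07. With adjusted p under 0.05, 0 of the 19 passed by limma or edgeR, and 14 had an unadjusted p under 0.05, all above 0, where the share over all genes was 11.9% (6.67% above 0 and 5.25% below). Cacna1c, the pore of the L-type calcium channel, had 4273, 4705 and 3058 normalized counts in Prrx1(R1A)-/- nuclei, against 941, 1609.5 and 1848 in controls (log2 fold change 1.48 ± 0.28, adjusted p = 0.094 by limma). Every Prrx1(R1A)-/- value lay above every control. The single target below 0, picked out after its value was seen, was the reticulon gene Rtn4 (-0.24 ± 0.28, adjusted p = 0.765 by limma, and -0.54 to -0.05 on leaving out 1 library). Ttn and Ryr2 are also cardiomyocyte markers of the lists used here, and without them the other 17 targets had a median of 0.89. The cardiomyocyte marker list as a whole had 10 of 12 genes above 0 with a median of 0.89, and its part in the targets' values was not tested. Without control replicate 1, 8 of the 19 targets were higher with adjusted p under 0.05 by limma, beside 6.1% of all genes, and with DESeq2 7 were, beside 1.78% of all genes called in either direction.

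Of 11 transcripts spliced by MBNL or CELF proteins, 9 reached the level to be tested. Each of these was above 0 (median 0.82 on the log2 scale). On leaving out 1 library Nfix (0.01), Bin1 (0.11), Atp2a1 (0.13) and Tnnt3 (0.82) turned below 0. Their lowest values were -0.20, -0.12, -0.14 and -0.08, in that order. Tnnt3, whose value was the median, did so without Prrx1(R1A)-/- replicate 3. That library had 427 normalized counts of it, against 53.2 and 79.2 in replicates 1 and 2. Nfix was also at -0.22 with quantile scaling. The list median was 0.57 to 0.89 on leaving out 1 library. None of the 9 passed by limma or edgeR, and 4 had an unadjusted p under 0.05, all above 0, beside 6.67% of all genes. Tnnt2, cardiac troponin T, had 42017, 40003 and 32598 normalized counts in Prrx1(R1A)-/- nuclei, against 12132, 11348 and 18455 in controls (log2 fold change 1.48 ± 0.27, adjusted p = 0.094 by limma). Its groups did not overlap. Tnnt2 is also a cardiomyocyte marker of the lists used here, and the other 8 targets had a median of 0.62. The skeletal muscle channel genes Cacna1s and Ryr1 had at most 9 and 34 reads in a library and were not tested. DESeq2 called 2 of the 9, beside 1.78% of all genes, and limma without control replicate 1 called 2 of the 9 higher, beside 6.1% of all genes.

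Among MEF2 factors, which activate Srpk3 in mouse muscle, the 3 listed here differed in direction. Mef2d had 2864, 3569.6 and 3030.06 normalized counts in Prrx1(R1A)-/- nuclei, against 2157, 1758 and 1933 in controls (0.69 ± 0.20, adjusted p = 0.246 by limma), without overlap. Mef2c had 366 ± 78.3 in Prrx1(R1A)-/- nuclei and 442 ± 43.6 in controls (SD, n = 3 each, log2 fold change -0.29 ± 0.25). Mef2a, the remaining gene of the list, was also below 0 (-0.28 ± 0.24). On leaving out 1 library Mef2c ranged over -0.43 to -0.12 and Mef2a over -0.46 to -0.10. None of the 3 passed over all genes, and Mef2d passed without control replicate 1 (adjusted p = 0.013, with a range of 0.013 to 0.681 over the alternatives to limma on all 6 libraries).

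Other splicing regulators were tested on 4 lists. Of their 58 tested genes, 0 had an adjusted p under 0.05 by limma, 0 with edgeR and 1 with DESeq2, beside 1.78% of all genes with DESeq2. An unadjusted p under 0.05 by limma was found for 10 of the 58, beside 11.9% of all genes, and 9 of them were above 0, beside 6.67%. Among paralogs and other tissue regulators, 16 of 23 tested genes lay above 0 with a median of 0.35, which was 0.11 without control replicate 1. The muscle RNA-binding gene Rbm38 had 592, 638 and 533 normalized counts in Prrx1(R1A)-/- nuclei, against 62.9, 133 and 475 in controls (1.88 ± 0.55, adjusted p = 0.256 by limma, and 1.22 without control replicate 1). All Prrx1(R1A)-/- values exceeded the controls, which themselves spread widely, and its exons overlap those of opposite-strand genes. Rbpms, a heart and smooth muscle splicing regulator, had 3572, 3564 and 2762 in Prrx1(R1A)-/- nuclei, against 1551, 2062 and 2377 in controls (0.74 ± 0.22, adjusted p = 0.264 by limma). The relatives Rbfox3, Mbnl3, Celf5, Celf6 and the epithelial regulator Esrp1 had at most 35 reads in any library and were not tested.

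SR proteins, the general activators of exons, had 6 of 12 tested genes above 0 and a median of 0.01, which turned to -0.03 with quantile scaling and to -0.13 without control replicate 1. Srsf11 had 4706, 4611 and 4141 normalized counts in Prrx1(R1A)-/- nuclei, against 3387, 2233 and 1836 in controls (0.90 ± 0.24, adjusted p = 0.209 by limma), without overlap. Srsf6 had 851 ± 89.0 in Prrx1(R1A)-/- nuclei and 666 ± 104 in controls (SD, n = 3 each; 0.36 ± 0.22). Among hnRNP and PCBP genes, which often repress exons, 6 of 15 lay above 0 and the median was -0.16, and -0.32 to -0.03 on leaving out 1 library, the ends being without control replicates 1 and 3. Hnrnpl, a factor that binds CA-rich RNA, had 879, 903 and 816 in Prrx1(R1A)-/- nuclei, against 515, 416 and 529 in controls (0.84 ± 0.21, adjusted p = 0.187 by limma), without overlap, and it was the single gene of these lists called by DESeq2. Its exons share bases with an opposite-strand gene. Hnrnpf had 79.0 ± 7.67 in Prrx1(R1A)-/- nuclei and 126 ± 45.2 in controls (SD, n = 3 each; -0.61 ± 0.35, and -0.34 without control replicate 1).

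Kinases that phosphorylate splicing factors, the relatives of Srpk3 in function, had 6 of 8 genes above 0 and a median of 0.26. Prpf4b, a kinase of the spliceosome, had 2806, 3334 and 3509 normalized counts in Prrx1(R1A)-/- nuclei, against 2847, 1973 and 1846 in controls (0.55 ± 0.22, adjusted p = 0.371 by limma). Clk2, which phosphorylates SR proteins in the nucleus, had 1117, 1532 and 1833 in Prrx1(R1A)-/- nuclei, against 1220.5, 832 and 968 in controls (0.56 ± 0.24, adjusted p = 0.399 by limma). In both genes control replicate 1 overlapped the Prrx1(R1A)-/- values. Without that library 8 of the 58 splicing genes passed by limma, 4 higher and 4 lower, beside 6.1% and 3.06% of all genes. The higher ones were Srsf4, Srsf11, Hnrnpl and Prpf4b and the lower ones Tial1, Hnrnpk, Clk1 and Clk4, picked out after their values were seen.

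**Figure D5:**
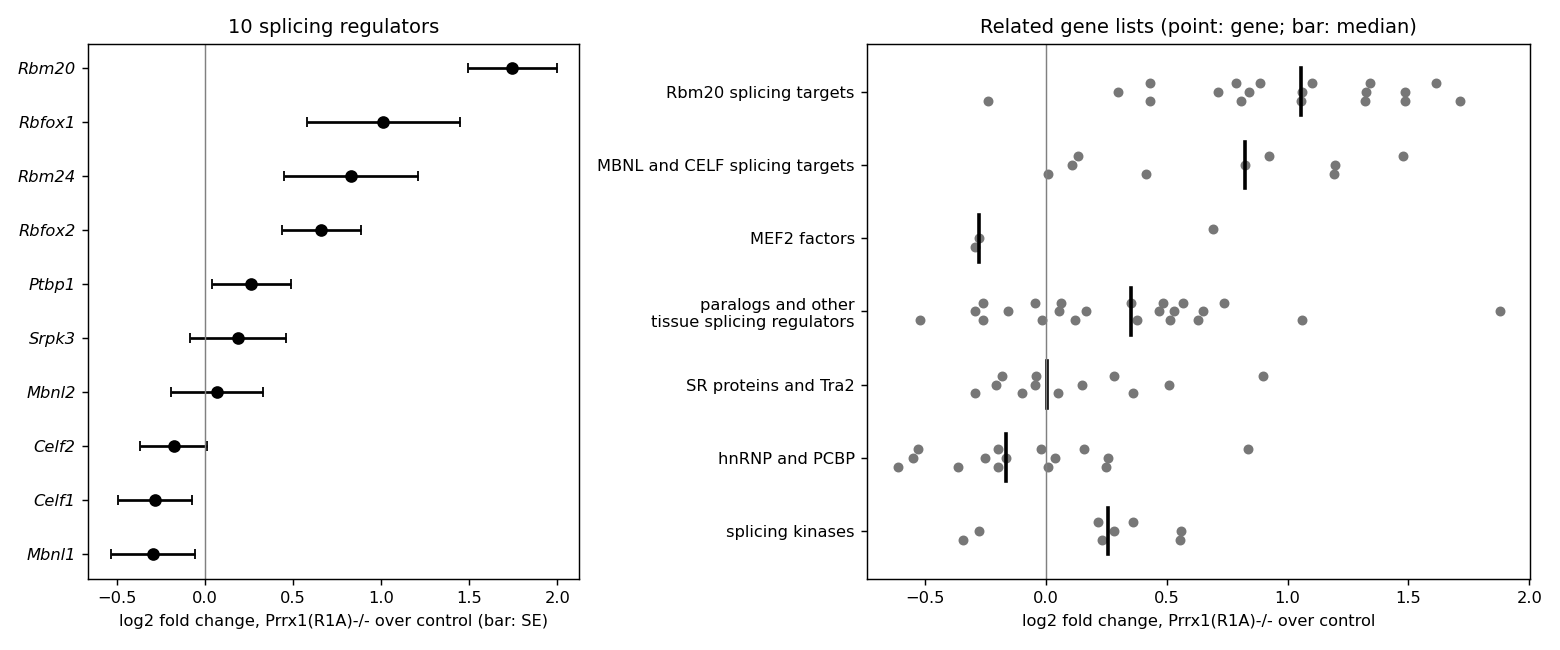
Log2 fold change, Prrx1(R1A)-/- over control, for the 10 splicing regulators with SE bars (left) and for every tested gene of 7 related lists as points with list medians as bars (right). The medians lie at 1.05 for Rbm20 targets and 0.82 for MBNL and CELF targets, and between -0.28 and 0.35 for the other 5 lists.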

How the data were processed

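The authors deposited 1 signal value per gene and library, which their sheet calls a normalized count, made with STAR, DESeq2 and build mm10, per the submitters' processing notes; no version, read counter or annotation is stated in the sources used. Every column is whole multiples of 1 step per library, within 0.01 reads, in all but 1 of 157992 values, so reads were recovered by division and 3 reads were taken as the floor (2.22 to 3.77 normalized counts, counting error only). The authors' deposited comparison table holds log2 fold changes with standard errors, a Wald score, p-values, their −log10 values and a mean signal for 1900 genes, and was used only for the members' fold changes. A further 847 entries without values were left out.

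Genes with at least 10 normalized counts in at least 3 libraries (14584) were tested with limma-trend 3.58.1 (R 4.3.3) on log2(count + 1), two-sided, with Benjamini-Hochberg adjustment over all genes. Alternatives were a pseudocount of 0.5 or 5, the filter at 50 or none, quantile or TMM scaling, the count tests of edgeR 4.0.16 and DESeq2 1.42.0 run on the recovered whole reads, the replicate number as a block, and leaving out each library. The procedure was tested on simulated data. Gene positions and merged exon lengths came from GENCODE M21 (GRCm38), matched by symbol. Besides the members, exons of other tested genes named here share bases with opposite-strand genes. These are Myh6, Ttn, Pln, Rtn4, Nfix, Atp2a1, Bin1, Mef2a, Mef2d, Rbm38, Srsf4, Hnrnpf, Hnrnpk, Hnrnpl and Prpf4b. Genes outside the lists were not checked for such overlap. The MEF2 motif was widened to its full consensus after the sequences were seen. The members, lists and rule for named genes (all members; from each list the called genes or the 2 with the smallest p; the 5 genes most like Rbm20 on each of 2 measures) were chosen with earlier results of these data known. Some genes that the rule names are not reported here. Same-numbered replicates of the 2 genotypes had deviations correlated at -0.112, -0.0187 and -0.0868, so the numbers were not treated as pairs. Per the labels nuclei were pooled per individual, and p-values measure the spread between these libraries. Plots were drawn with matplotlib 3.10.9.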

Additional observations from a re-analysis of the deposited data

How the results depend on the processing

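Over 15 alternatives the count of members with a log2 fold change above 0 was 6 or 7 of 10. Of the 150 single values, 149 moved by less than the spread between replicates. Celf2 with quantile scaling (-0.35) was the exception, and Mbnl2 changed sign in 3. The other filters and the replicate block leave a member's fold change as it was by design, so those values could not move. Leaving out 1 library cannot shift a group mean by as much as that spread, so those values could not count as moved either. The sign changes of Mbnl2 also fell within it. The count of 149 is therefore not read as a sign of stability. The values relative to cardiomyocyte markers stand outside this count, and each of them moved by more than that spread. Over the 15 alternatives Rbm20 ranged from 1.42 (quantile scaling) to 2.01 (without Prrx1(R1A)-/- replicate 3). The count of genes called was 2 by limma, 244 with DESeq2 (1881 at unadjusted p under 0.05), 0 with edgeR (1753) and 0 with quantile scaling (1680); leaving out 1 library gave 0 to 1312, the high end without control replicate 1 and 0 without any 1 of the other 5. The cause was not tested. DESeq2 called 1 gene of the splicing lists and 9 of the target and MEF2 lists; leaving out 1 library gave 0 to 8 and 0 to 11, again highest without control replicate 1. Without control replicate 1 the median of the Rbm20 targets was 0.75 and that of the MBNL and CELF targets 0.57. Target genes outside the cardiomyocyte marker list, an alternative chosen after seeing the data, could only give 0 calls. The full lists had 0 and the adjusted p-values were the same. With the replicate number as a block 0 genes were called (1361 at unadjusted p under 0.05); the numbers share no stated source and no correlation of same-numbered libraries was above 0. The members with the fewest reads were Rbfox1 (56 to 348 per library) and Srpk3 (104 to 211).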

Other observations

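When the genotype means were removed and only deviations of libraries from their group mean were compared, the genes closest to Rbm20 were the lysophospholipid acyltransferase gene Mboat7 (r = 0.996), Alpk3 (0.996), the ciliary transition zone gene Tctn1 (0.995), the inositol polyphosphate phosphatase gene Inpp5a (0.994) and the stress kinase gene Mapk10 (0.994), over 6 libraries and 8143 genes. Alpk3 was the gene among the closest 5 by both measures. Mboat7 had means of 145 and 148 normalized counts in Prrx1(R1A)-/- and control nuclei (log2 fold change -0.07), so a like pattern within groups came without a difference between them. Of the members, Rbm24 (0.835), Rbfox1 (0.736), Srpk3 (0.636) and Celf1 (0.625) varied most like Rbm20 within groups, while Ptbp1 (-0.613) and Rbfox2 (-0.470) varied the opposite way. The same libraries and scaling underlie all of these values.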
